A study of Arabidopsis thaliana with 24 samples.

Results

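A list of WRKY transcription factor genes of Arabidopsis thaliana was followed. It need not hold every WRKY gene of the species, and family and group below mean its members. Members were chosen by locus ID and not by a measured value, though with earlier results of these data known. In all, 53 genes were followed of 23865 in the 5 deposited tables. All 53 were listed in the 4 full tables, and their names matched the RefSeq annotation for 53 of 53. The data are mRNA sequencing of whole seedlings in the Col-0 background, with 24 libraries in 8 groups of 3 biological replicates. In every group, growth on 7 mM KNO3 lasted 7 days and was followed by 2 days without nitrogen. Wild type was sampled after mock treatment, or after 3 h of 10 mM KNO3, 0.5 mM H2O2 or both together. For the mutants hbi-q and nlp7-1 there were mock seedlings and seedlings given KNO3 for 3 h. The authors' names of the comparisons give KCl as the control, and KCl with H2O2 as the control for KNO3 with H2O2. A KCl concentration is not in the labels. Below, H2O2 alone means H2O2 without KNO3. NLP7 is a transcription factor that carries much of the nitrate response, and HBI genes encode bHLH factors. Which of these genes hbi-q lacks, and what kind of allele nlp7-1 is, is not in the labels. By its title the study concerns the control of reactive oxygen by HBI factors in nitrate responses.

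WRKY proteins are plant transcription factors named for the amino acids of their DNA-binding domain, which also folds around a zinc ion. Most bind the W-box, a short DNA element with the core TTGAC, and many WRKY genes carry W-boxes in their own promoters, so that members regulate themselves and each other. They are best known in seedlings and leaves for responses to pathogens, salicylate, reactive oxygen, senescence and phosphate shortage. The family is divided by its domains into group I, which has a pair of WRKY domains, group II with the subgroups IIa to IIe, and group III, which has another form of zinc finger. The members comprised 7 of group I, 3 of IIa, 7 of IIb, 13 of IIc, 7 of IId, 6 of IIe and 10 of group III.

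Upstream sequence of 5 members is shown because the results below turn on them. WRKY30, WRKY33, WRKY63 and WRKY75 were listed higher with H2O2, and WRKY54 had the lowest adjusted p among members in the tests of the nitrate response with against without H2O2 and in hbi-q against wild type. Each run is the 300 bases before the annotated gene start, 5′ to 3′ on the gene's own strand, from RefSeq TAIR10.1. Capitals mark the 6-base W-box, searched as TTGACC and TTGACT on both strands, so GGTCAA and AGTCAA are the same element read on the other strand.
WRKY30 (chr5:8154711-8155010, minus strand): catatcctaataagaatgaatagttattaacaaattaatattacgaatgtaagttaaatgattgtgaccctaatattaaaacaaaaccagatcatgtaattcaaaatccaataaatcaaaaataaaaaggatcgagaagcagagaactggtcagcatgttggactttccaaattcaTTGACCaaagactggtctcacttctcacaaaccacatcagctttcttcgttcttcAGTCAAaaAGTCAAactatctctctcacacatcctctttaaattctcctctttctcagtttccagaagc
WRKY33 (chr2:16107935-16108234, plus strand): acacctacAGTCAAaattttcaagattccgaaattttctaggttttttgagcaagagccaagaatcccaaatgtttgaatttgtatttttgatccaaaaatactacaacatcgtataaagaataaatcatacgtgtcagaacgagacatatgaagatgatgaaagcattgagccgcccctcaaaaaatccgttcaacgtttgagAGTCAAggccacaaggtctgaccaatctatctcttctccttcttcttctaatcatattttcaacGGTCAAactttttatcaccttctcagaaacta
WRKY54 (chr2:17002529-17002828, minus strand): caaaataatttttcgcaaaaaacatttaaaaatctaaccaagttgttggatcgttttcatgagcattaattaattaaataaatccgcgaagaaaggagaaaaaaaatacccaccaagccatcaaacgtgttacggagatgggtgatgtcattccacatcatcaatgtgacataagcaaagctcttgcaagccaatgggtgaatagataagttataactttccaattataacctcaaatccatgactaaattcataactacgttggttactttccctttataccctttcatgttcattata
WRKY63 (chr1:24848020-24848319, plus strand): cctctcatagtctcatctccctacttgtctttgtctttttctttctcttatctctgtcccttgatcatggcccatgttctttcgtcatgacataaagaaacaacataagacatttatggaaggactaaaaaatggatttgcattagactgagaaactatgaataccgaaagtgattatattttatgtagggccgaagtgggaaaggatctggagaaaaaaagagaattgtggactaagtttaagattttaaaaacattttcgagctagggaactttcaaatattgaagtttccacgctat
WRKY75 (chr5:4151202-4151501, minus strand): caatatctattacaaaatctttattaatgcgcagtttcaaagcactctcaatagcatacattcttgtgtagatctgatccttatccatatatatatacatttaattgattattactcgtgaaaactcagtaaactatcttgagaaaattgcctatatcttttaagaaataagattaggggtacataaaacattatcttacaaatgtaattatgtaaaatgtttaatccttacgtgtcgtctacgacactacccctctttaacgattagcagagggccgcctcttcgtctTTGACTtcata

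In these windows WRKY30 and WRKY33 each held 3 W-boxes, WRKY75 held 1, and WRKY54 and WRKY63 held 0. Of all 53 members 22 (41.5%) had at least 1 W-box in the window, against 8855 of 27443 protein-coding genes (32.3%). At least 2 were present in 9 members (17.0%) and in 7.91% of all genes. Among the 14 members listed higher with H2O2, 8 (57.1%) held a W-box and 5 (35.7%) held at least 2, namely WRKY30, WRKY33, WRKY41, WRKY45 and WRKY53. Of the 39 others 14 (35.9%) held 1 or more and 4 (10.3%) at least 2. The G-box CACGTG, an element bound by bHLH and bZIP factors, was found in 6 members (11.3%) and in 7.09% of all genes. No W-box overlapped a G-box in a member (0 windows). These shares describe letters in a window and were not tested, and 5 of the 53 windows overlapped an exon of another gene.

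The level of a gene is given by its base mean, the average size-factor-normalised count that DESeq2 reports. Divided by the exon length of the gene, the median base mean of the members was 223 per kb, against 179 for 22914 genes. These are from the authors' deposited table of the wild-type nitrate response, which shares its base means with that of hbi-q. The levels per kb are therefore averages over both genotypes. WRKY15, which acts in osmotic and oxidative stress, was highest at 1250 per kb, and WRKY70, a regulator of salicylate signalling, followed at 916 per kb in that authors' deposited table. The lowest were WRKY55 (11.5 per kb), WRKY42 (6.37 per kb) and WRKY12 (3.84 per kb) in the same authors' deposited table, so these were the members with the fewest reads behind their values. Shoot photosynthesis markers and root markers were both present, with 20 of 20 and 12 of 12 genes listed in the wild-type table. The base mean of NLP7 was 446 in the authors' deposited table for nlp7-1. In those of wild type and hbi-q it was 1057, a single value shared by both. The nlp7-1 table was normalized separately from these, and the level of NLP7 was not tested. NLP7 rose with nitrate by 1.15 ± 0.36 in the authors' deposited table for nlp7-1. HBI1 rose by 4.17 ± 0.13 in hbi-q, by 5.30 ± 0.16 in wild type and by 5.46 ± 0.26 in nlp7-1 in the authors' deposited tables, so reads were assigned to it in hbi-q. In whole seedlings fewer cells of a type and less RNA per cell cannot be told apart. Values below are log2 fold changes ± standard error with Benjamini-Hochberg adjusted p-values of DESeq2, and a gene rose or fell where its adjusted p was under 0.05 and its change at least 2-fold.

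The first comparison asks what H2O2 did to the family in nitrogen-starved wild type. WRKY genes were among those that H2O2 raised. There 14 of 53 members rose and 0 fell in the authors' deposited table, where 4.98% of 22311 genes rose and 3.13% fell. That table holds only genes past the criterion, so the other 39 members are not listed and cannot be called unchanged. By subgroup 6 of 10 members of group III rose, with 4 of 13 of IIc, 2 of 7 of IIb, 1 of 3 of IIa and 1 of 7 of group I, while IId and IIe had 0 of 7 and 0 of 6. Of the shoot photosynthesis markers 4 of 20 rose, and of the root markers 3 of 12 fell, in the same authors' deposited table, and their part in the result was not tested.

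Group III held the largest changes. WRKY55 (AT2G40740), linked to reactive oxygen and salicylate in leaf senescence, rose 16.5-fold in the authors' deposited table (4.04 ± 0.38, adjusted p = 5.9e-25). WRKY30 (AT5G24110), an early stress-responsive member, rose 11.7-fold (3.55 ± 0.23) and WRKY63 (AT1G66600, also called ABO3), which acts in abscisic acid and drought responses, rose 9.01-fold (3.17 ± 0.21) in the authors' deposited table. All 3 genes were low in mock seedlings, with the levels given below. The senescence factor WRKY53 (1.29 ± 0.10), its relative WRKY41 (1.91 ± 0.18) and the salicylate regulator WRKY70 (1.17 ± 0.10) rose less in the authors' deposited table.

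Of the other groups, WRKY33 (AT2G38470) of group I, which drives camalexin synthesis and resistance to necrotrophic fungi downstream of MPK3 and MPK6, rose 4.42-fold in the authors' deposited table (2.15 ± 0.08, adjusted p = 1.15e-175). WRKY28 of IIc, an activator of the salicylate synthesis gene ICS1, rose 6.96-fold (2.80 ± 0.22), WRKY51 5.18-fold (2.37 ± 0.10) and WRKY75 4.76-fold (2.25 ± 0.14) in the authors' deposited table. WRKY51 takes part in the salicylate-dependent repression of jasmonate responses. WRKY75 and WRKY45 both activate phosphate uptake genes, and WRKY45 rose 2.62-fold (1.39 ± 0.12) in the authors' deposited table. WRKY6 of IIb, a factor of senescence and of phosphate export to the shoot, rose 3.63-fold (1.86 ± 0.08) and its relative WRKY31 2.31-fold (1.21 ± 0.17) in the authors' deposited table. Of the interacting IIa trio of defence regulators, WRKY40 rose 2.38-fold (1.25 ± 0.12) in the authors' deposited table, and WRKY18 and WRKY60 were not listed.

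**Figure D1:**
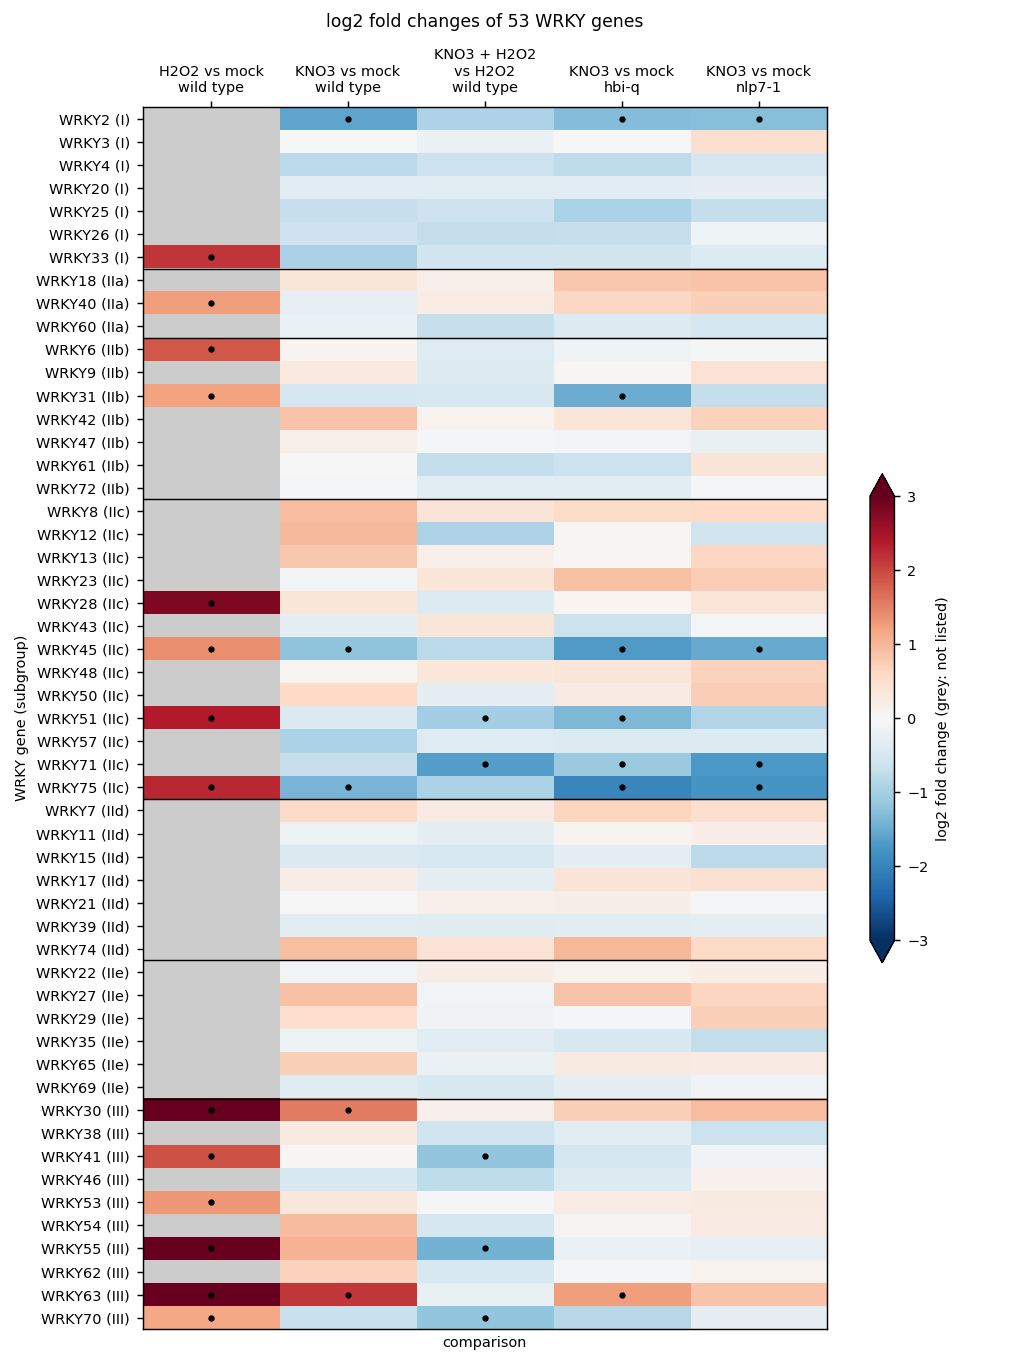
Log2 fold changes of the 53 WRKY genes (rows, by subgroup) in the 5 deposited comparisons (columns), with dots where the gene rose or fell and grey where it was not listed. All 14 dots in the H2O2 column are on the red side, while the 5 dots in the column for KNO3 with H2O2 are on the blue side.

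For the 14 listed genes the mean level of each wild-type group could be derived from base means and fold changes, in normalised counts and with no error. The derivation takes a base mean as the average of the groups in that fit. The H2O2 level derived in this way from both H2O2 tables differed by a near-constant 0.07 on the log2 scale (SD 0.0068 over 1801 genes). WRKY33 stood at 1960 in mock, 1010 after KNO3, 8690 after H2O2 and 5810 after both. WRKY75 stood at 179, 67.7, 851 and 441 in the same order. In both genes the level after nitrate was below that without nitrate, with and without H2O2, and each group given H2O2 was above its counterpart.

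WRKY30 followed another course, at 28.5 in mock, 82.8 after KNO3, 335 after H2O2 and 373 after both. WRKY63 stood at 30.1, 131, 272 and 234. In these 2 genes nitrate alone and H2O2 alone each raised the level, and both together gave a level near that of H2O2 alone. Both rises are measured against the same mock group and are not separate evidence. WRKY55 stood at 7.13, 14.6, 118 and 44.2, so the group given both was below the H2O2 group. The derived change with H2O2 in nitrate-fed seedlings was above 0 for all 14 genes, from 0.64 for WRKY70 to 2.70 for WRKY75 on the log2 scale. These derived changes have no test.

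**Figure D2:**
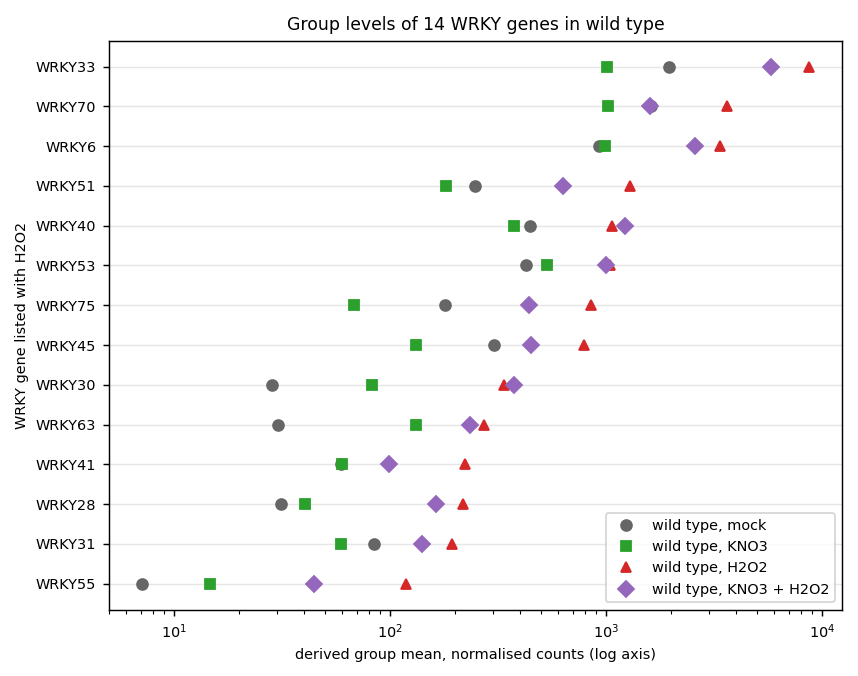
Derived mean level in each wild-type group (x axis, normalised counts, log axis) for the 14 WRKY genes listed higher with H2O2 (y axis), with 1 symbol per group and no error available. The H2O2 symbol lies to the right of mock in every row, and the green KNO3 symbol lies left of mock for WRKY33, WRKY45 and WRKY75 and right of it for WRKY30, WRKY55 and WRKY63.

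The second comparison asks how nitrate changed the family in wild type. Few members moved by 2-fold. Of 53 members 2 rose in the authors' deposited table, where 9.44% of 22954 genes did, and 3 fell, where 5.51% did. WRKY63 rose 4.36-fold (2.12 ± 0.22, with an adjusted p of 1.66e-21) in the authors' deposited table, and there WRKY30 rose 2.90-fold (1.54 ± 0.26, adjusted p = 1.92e-08). WRKY2 of group I, known from zygote polarity and pollen, fell 2.98-fold (-1.58 ± 0.10) in the authors' deposited table, and the phosphate-linked WRKY75 (-1.40 ± 0.21) and WRKY45 (-1.21 ± 0.16) of IIc fell as well. Smaller changes were common in the family as among all genes. Without a minimum fold, 17 members were higher and 19 lower at an adjusted p under 0.05, against 29.7% and 28.5% of all genes.

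Counts of the smaller changes are given by subgroup, with no test between subgroups, beside the 29.7% of all genes that were higher and the 28.5% that were lower at an adjusted p under 0.05. All 7 members of group I were below 0 (median -0.70, against -0.01 for all genes), and 6 of them were lower at an adjusted p under 0.05. They included WRKY33 (-0.97 ± 0.08), short of 2-fold, the heat-responsive WRKY25 (-0.70 ± 0.07) and WRKY26 (-0.62 ± 0.15), and WRKY4 (-0.81 ± 0.08), which acts in resistance to necrotrophs, all in the authors' deposited table. WRKY3, its close relative, stood at 0.00 ± 0.07. In group III, 8 of 10 were above 0 (median 0.51), and 6 were higher at an adjusted p under 0.05. Of the shoot photosynthesis markers 17 of 20 were higher by the same rule (9 past 2-fold, median 0.94), and of the root markers 4 of 12 (median 0.05). Their part in these counts was not tested. WRKY54 (AT2G40750), a salicylate regulator that acts with WRKY70, stood at 0.95 ± 0.08 and WRKY62, a repressor of basal defence, at 0.70 ± 0.12 in the authors' deposited table. WRKY53 stood at 0.32 ± 0.10 in the authors' deposited table. WRKY70 stood at -0.66 ± 0.12 and WRKY46 at -0.46 ± 0.10 in the authors' deposited table.

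Subgroups IIa, IIb, IId and IIe had no member past 2-fold. The IIa genes stood at 0.37 ± 0.07 (WRKY18), -0.25 ± 0.22 (WRKY40) and -0.20 ± 0.08 (WRKY60) in the authors' deposited table. In IIb, WRKY6 stood at 0.09 ± 0.08 and WRKY42, which like WRKY6 regulates the phosphate exporter gene PHO1, at 0.86 ± 0.45 in the authors' deposited table, the latter on a base mean of 15.3. In IIe, WRKY27 (0.87 ± 0.12), WRKY65 (0.72 ± 0.08) and WRKY29 (0.50 ± 0.09), a factor of the flagellin response, were higher at an adjusted p under 0.05 in the authors' deposited table.

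The third comparison asks how nitrate acted on the family in the presence of H2O2. In the authors' deposited table for KNO3 with H2O2 against H2O2 alone, 0 of 53 rose, where 6.54% of 22302 genes did, and 5 fell, where 4.14% did. WRKY71 of IIc, a regulator of shoot branching, fell 3.13-fold (-1.65 ± 0.20), WRKY55 2.66-fold (-1.41 ± 0.24), WRKY70 2.28-fold (-1.19 ± 0.07), WRKY41 2.26-fold (-1.17 ± 0.17) and WRKY51 2.04-fold (-1.03 ± 0.09) in the authors' deposited table. Without a minimum fold, 30 of 53 were lower at an adjusted p under 0.05 (26.7% of all genes) and 5 higher (26.6%). The family median was -0.37, against 0.00 for all genes. By the same rule 12 of 20 shoot photosynthesis markers were lower and 5 higher (median -0.23), and 5 of 12 root markers were higher and 1 lower (median 0.23). Their part in the result was not tested. Of the H2O2-raised members WRKY75 stood at -0.95 ± 0.11, WRKY45 at -0.82 ± 0.10, WRKY33 at -0.58 ± 0.08 and WRKY6 at -0.38 ± 0.07 in the authors' deposited table. WRKY30 (0.15 ± 0.14), WRKY53 (-0.06 ± 0.08) and WRKY18 (0.14 ± 0.07) stood near 0 there in the authors' deposited table. WRKY40 (0.21 ± 0.08, adjusted p = 0.0208) was higher but short of 2-fold in the authors' deposited table. WRKY42 stood at 0.12 ± 0.62 on a base mean of 8.80, and WRKY60 at -0.69 ± 0.09. The libraries given H2O2 alone enter both this comparison, as the control, and the first, as the treated group.

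Whether the nitrate response itself differed with H2O2 was tested for each gene as the difference of both fold changes over the root of their summed squared standard errors, with a two-sided normal p-value adjusted by Benjamini-Hochberg over 22204 genes. The response was lower with H2O2 for 21 of 53 members, where 13.4% of all genes were, and higher for 3, where 11.4% were. The median difference was -0.32 for the members and 0.02 for all genes. By subgroup, 9 of 10 members of group III were lower (median -1.20), with 3 of 6 in IIe, 3 of 7 in IIb, 3 of 13 in IIc, 2 of 7 in IId, 1 of 3 in IIa and 0 of 7 in group I.

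WRKY54 had the lowest adjusted p of the members. The response of WRKY54 was 0.95 ± 0.08 without H2O2 and -0.52 ± 0.09 with it in the authors' deposited tables, a difference of -1.47 ± 0.12 (adjusted p = 8.59e-33). For WRKY63 the response went from 2.12 ± 0.22 to -0.22 ± 0.14 in the authors' deposited tables, a difference of -2.34 ± 0.26 (adjusted p = 8.11e-18). The response of WRKY65 differed by -0.92 ± 0.12 (adjusted p = 4.2e-12) and that of WRKY62 by -1.19 ± 0.18 (adjusted p = 1.02e-09). These 4 differences were the only ones of the 24 that also passed with the test statistic scaled by its robust SD over all genes, which was 1.97. Of all 22204 genes 823 passed with that scaling.

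Others of group III were WRKY55 (-2.45 ± 0.55), WRKY30 (-1.38 ± 0.30), WRKY41 (-1.20 ± 0.28), WRKY38 (-0.87 ± 0.15), WRKY70 (-0.53 ± 0.14) and WRKY53 (-0.38 ± 0.13). WRKY38 is, like WRKY62, a repressor of basal defence. Each of these responses was lower with H2O2 at an adjusted p under 0.05. WRKY46 was the member of the group that missed the threshold. WRKY54 and WRKY55 are neighbours on chromosome 2, and both had a lower response with H2O2, while only WRKY55 was listed as raised by H2O2 itself.

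Group I went the other way where it passed. The responses of WRKY2 (0.66 ± 0.14, adjusted p = 2.35e-05) and WRKY33 (0.39 ± 0.11, adjusted p = 0.00425) were higher with H2O2, and since both were below 0 in each table this is a weaker decrease. WRKY57 of IIc, a factor of drought and senescence responses, did so too (0.54 ± 0.16). Outside groups I and III, lower responses were found for WRKY27 (-0.95 ± 0.19), WRKY71 (-0.95 ± 0.30), WRKY50 (-0.85 ± 0.22), WRKY9 (-0.71 ± 0.18) and WRKY61 (-0.71 ± 0.19). The rest were smaller, from -0.60 ± 0.13 for WRKY29 through WRKY51, WRKY60, WRKY17 and WRKY6 to -0.32 ± 0.11 for WRKY7. Shoot photosynthesis markers moved with the family here, 20 of 20 having a lower response with H2O2 (median -1.16), and root markers had 4 of 12 higher and 3 lower (median 0.12). Their part in the result was not tested.

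**Figure D3:**
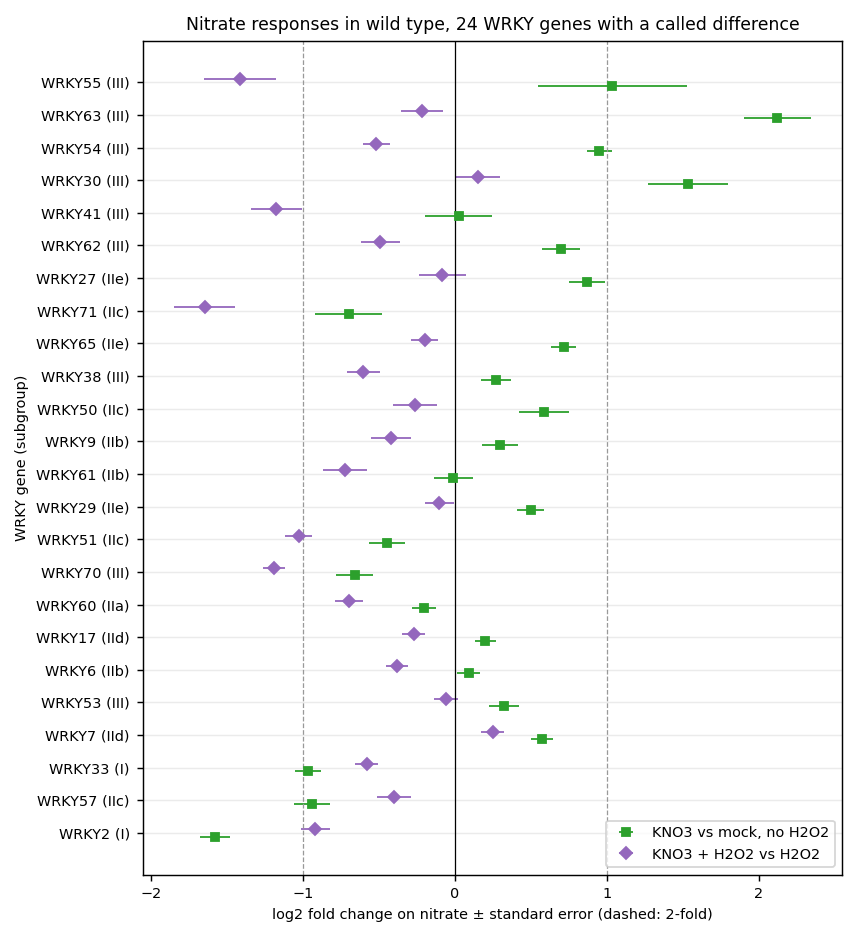
Log2 fold change on nitrate ± standard error (x axis) in wild type without H2O2 (green) and with H2O2 (purple) for the 24 WRKY genes whose response differed (y axis, sorted by the difference). The purple point lies left of the green one in 21 rows and right of it in the 3 rows for WRKY33, WRKY57 and WRKY2.

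The fourth comparison concerns the nitrate response of hbi-q. Among 53 members 1 rose in the authors' deposited table of that mutant, where 10.1% of 22954 genes did, and 6 fell, where 6.06% did. WRKY63 rose 2.40-fold (1.27 ± 0.19). WRKY75 fell 3.85-fold (-1.95 ± 0.22), WRKY45 3.25-fold (-1.70 ± 0.17), WRKY31 2.80-fold (-1.48 ± 0.17), WRKY51 2.54-fold (-1.34 ± 0.12), WRKY2 2.46-fold (-1.30 ± 0.10) and WRKY71 2.15-fold (-1.11 ± 0.24) in the authors' deposited table. Of these 6, 4 belong to IIc. Without a minimum fold, 24 members were lower (28.9% of all genes) and 13 higher (29.4%).

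The remaining well-studied members stood at 0.81 ± 0.07 (WRKY18), 0.61 ± 0.23 (WRKY40), 0.71 ± 0.26 (WRKY30) and 0.21 ± 0.10 (WRKY53) in the authors' deposited table of hbi-q, none at 2-fold. Below 0 in the authors' deposited table were WRKY70 (-0.84 ± 0.12), WRKY33 (-0.55 ± 0.08), WRKY60 (-0.41 ± 0.08) and WRKY6 (-0.13 ± 0.07). WRKY42 stood at 0.36 ± 0.40 and WRKY74 of IId just short of 2-fold at 0.99 ± 0.21 in the authors' deposited table.

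Tested directly, the response was lower in hbi-q than in wild type for 8 of 53 members, where 3.49% of 22954 genes were, and higher for 4, where 2.13% were. The median difference was -0.23 for the members and 0.02 for all genes. The salicylate regulator WRKY54 had the lowest adjusted p of the members, with responses of 0.09 ± 0.08 in hbi-q and 0.95 ± 0.08 in wild type in the authors' deposited tables, a difference of -0.86 ± 0.11 (adjusted p = 8.5e-12). WRKY51 differed by -0.90 ± 0.17 (adjusted p = 1.82e-05), which is a deeper fall. The auxin-linked root gene WRKY23 had the highest difference, 0.96 ± 0.18 (adjusted p = 5.23e-06), from responses of 0.88 ± 0.13 in hbi-q and -0.07 ± 0.12 in wild type in the authors' deposited tables. WRKY18 was higher by 0.44 ± 0.10 (adjusted p = 0.00102). With the statistic scaled by its robust SD, which was 1.30, 520 of all 22954 genes passed. WRKY54, WRKY51, WRKY23 and WRKY18 were the members that also passed with that scaling.

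The others depended on that scaling. Lower responses in hbi-q were found for WRKY31 (-0.97 ± 0.25), WRKY62 (-0.75 ± 0.18), WRKY61 (-0.62 ± 0.18), WRKY38 (-0.58 ± 0.14), WRKY29 (-0.53 ± 0.13) and WRKY65 (-0.45 ± 0.12). Higher ones were found for WRKY57 (0.54 ± 0.17) and WRKY33 (0.42 ± 0.12), both a weaker decrease. In group III 3 of 10 were lower and 9 of 10 were below 0 (median -0.67), and in IIb 2 of 7 were lower and 7 of 7 below 0. Of all 22954 genes 10834 were below 0 and 12120 above. In IId, calmodulin-binding factors such as WRKY7, WRKY11 and WRKY17, 0 of 7 passed and 6 were above 0. Of the shoot markers 4 of 20 had a lower response in hbi-q (median -0.06), and 0 of 12 root markers differed in either direction.

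The fifth comparison asks how nlp7-1 responded. Among 53 members 0 rose in the authors' deposited table of that mutant, where 9.03% of 22610 genes did, and 4 fell, where 6.63% did. They were WRKY75, which fell 3.43-fold (-1.78 ± 0.38), WRKY71 3.31-fold (-1.73 ± 0.21), WRKY45 2.85-fold (-1.51 ± 0.18) and WRKY2 2.41-fold (-1.27 ± 0.14) in the authors' deposited table. Thus 3 members, WRKY2, WRKY45 and WRKY75, fell in wild type, hbi-q and nlp7-1 alike. The share of all genes that did so was not counted, so this describes these 3 genes only. Without a minimum fold, 14 members were lower (22.0% of all genes) and 11 higher (20.6%). The highest member was WRKY30 at 0.94 ± 0.29 in the authors' deposited table. WRKY18 (0.86 ± 0.25), WRKY63 (0.85 ± 0.23), WRKY40 (0.71 ± 0.23), WRKY42 (0.68 ± 0.47) and WRKY53 (0.28 ± 0.27) were above 0 in the authors' deposited table. Below 0 in the authors' deposited table were WRKY60 (-0.52 ± 0.14), WRKY33 (-0.42 ± 0.23), WRKY70 (-0.26 ± 0.24) and WRKY6 (-0.07 ± 0.19). The median standard error over genes with a base mean over 100 was 0.180 here, against 0.0960 for wild type and hbi-q.

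Set against wild type, the nlp7-1 response was lower for 6 of 53 members, where 7.38% of 21790 genes were, and higher for 2, where 4.33% were. Lower were WRKY63 (-1.27 ± 0.32, adjusted p = 0.00262), WRKY71 (-1.03 ± 0.31, adjusted p = 0.0139), WRKY38 (-0.91 ± 0.20, adjusted p = 0.000446), WRKY54 (-0.70 ± 0.25, adjusted p = 0.0425), WRKY62 (-0.59 ± 0.19, adjusted p = 0.0227) and WRKY65 (-0.47 ± 0.16, adjusted p = 0.0328). Higher were WRKY40 (0.96 ± 0.32, adjusted p = 0.0299) and WRKY23 (0.82 ± 0.21, adjusted p = 0.00388). Group III supplied 4 of the 6 lower responses. With the statistic scaled by its robust SD of 1.88, 0 of the 8 passed, where 66 of all 21790 genes did. Shoot photosynthesis markers differed here too, 10 of 20 being lower and 0 higher (median -0.82 over the 19 listed in both tables), beside 0 of 12 root markers, and their part was not tested.

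**Figure D4:**
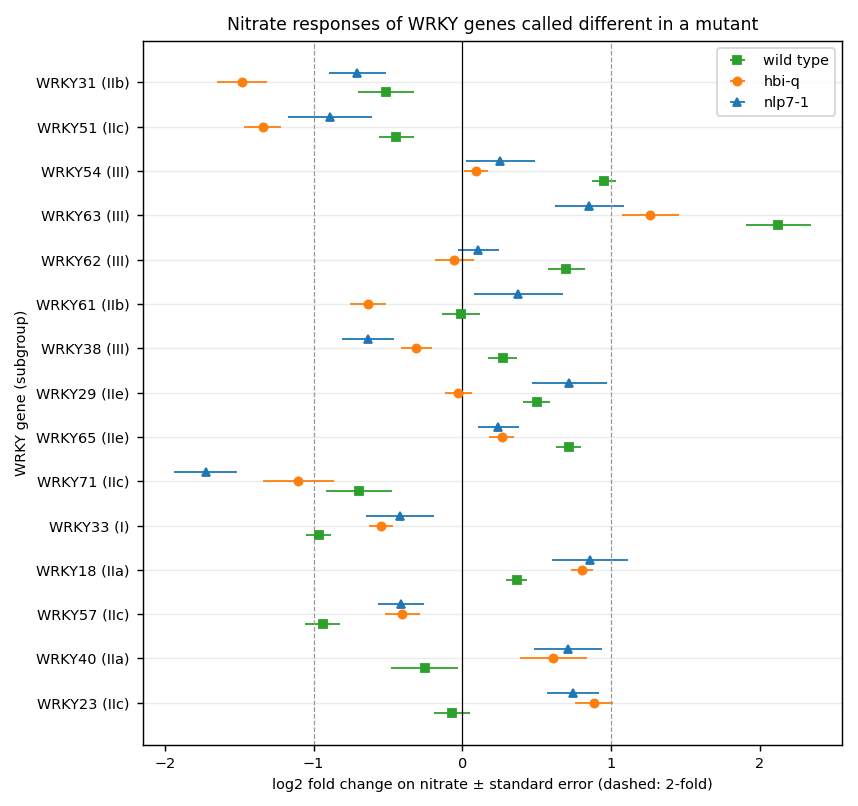
Log2 fold change on nitrate ± standard error (x axis) in wild type (green squares), hbi-q (orange circles) and nlp7-1 (blue triangles) for WRKY genes whose response differed in either mutant (y axis). WRKY54 stands at 0.95 in wild type and at 0.09 and 0.26 in the mutants, and WRKY23 stands at -0.07 in wild type and at 0.88 and 0.75 in the mutants.

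**Figure D5:**
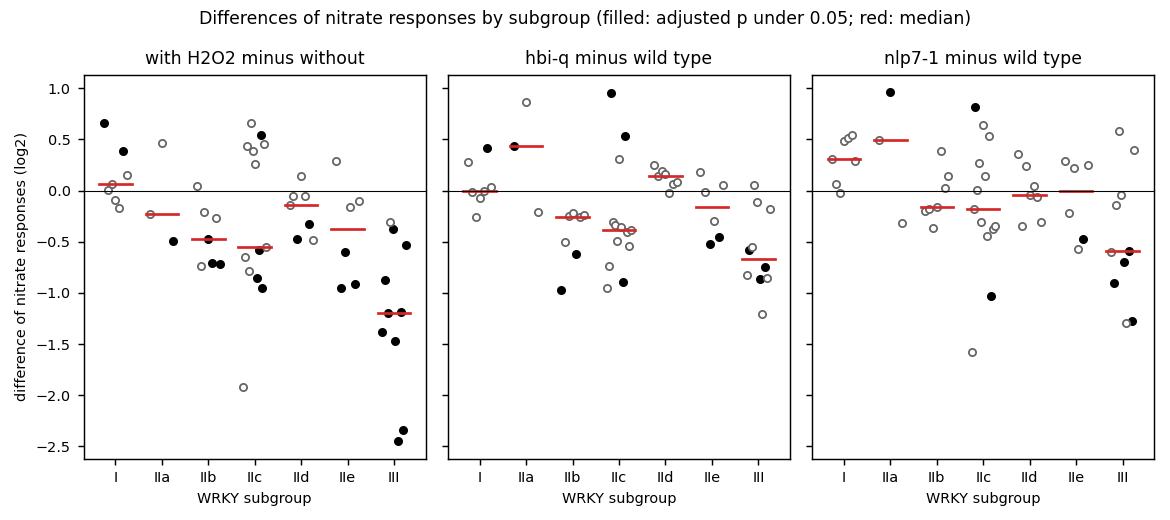
Differences of nitrate responses on the log2 scale (y axis) for each WRKY gene by subgroup (x axis), with filled points at an adjusted p under 0.05 and red lines at the medians. Group III has its median at -1.20, -0.67 and -0.60 in the panels for H2O2, hbi-q and nlp7-1.

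All 3 differences subtract the same wild-type response and are not separate evidence. Group III, of which 8 of 10 members stood above 0 in wild type, had medians of -1.20, -0.67 and -0.60 in the differences for H2O2, hbi-q and nlp7-1.

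Genes that act with WRKY factors were described from lists of kinases upstream, binding partners and reported targets. The lists were chosen with earlier results of these data known. VQ proteins, small partners that bind the WRKY domain through a short VQ motif, were counted in the same way. Of 33 VQ genes 13 rose and 0 fell with H2O2 in the authors' deposited table, where 4.98% of all genes rose and 3.13% fell. The highest were AT4G37710 (5.62 ± 0.71), AT1G17147 (4.53 ± 0.18), PDE337 (3.23 ± 0.17) and AT2G22880 (3.06 ± 0.16), and SIB1, a partner of WRKY33, rose by 1.58 ± 0.14 in the authors' deposited table. With nitrate in wild type 3 of 33 VQ genes rose (9.44% of all genes) and 1 fell (5.51%) in the authors' deposited table, shares near or below those of all genes. With nitrate added to H2O2, 0 rose (6.54% of all genes) and 3 fell (4.14%), among them SIB1 (-1.30 ± 0.11) in the authors' deposited table.

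Of 11 MAP kinase cascade genes, MPK3 and MKK9 fell with nitrate in all 4 nitrate comparisons, where 5.51% of all genes fell in wild type, 6.06% in hbi-q, 6.63% in nlp7-1 and 4.14% with H2O2. MPK3, which phosphorylates WRKY33, fell by 1.33 ± 0.06 in wild type, by 1.15 ± 0.06 in hbi-q, by 1.27 ± 0.12 in nlp7-1 and by 1.13 ± 0.07 with H2O2 in the authors' deposited tables. The other 9 were not past 2-fold with nitrate, and MPK11 (1.22 ± 0.13) was the 1 gene of this list that rose with H2O2 in the authors' deposited table.

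Among reported WRKY targets, 10 of 16 genes rose and 2 fell with H2O2 in the authors' deposited table, where 4.98% of all genes rose and 3.13% fell. CYP82C2, an indole metabolism enzyme, had the highest change (8.34 ± 1.22) in the authors' deposited table, with a wide error. CYP71A12, a camalexin pathway gene, rose 25.8-fold (4.69 ± 0.12), PAD3, the last camalexin enzyme and a target of WRKY33, 7.79-fold (2.96 ± 0.09) and PR1, a salicylate marker, 5.52-fold (2.47 ± 0.15) in the authors' deposited table. PHO1 (-1.08 ± 0.10), the phosphate exporter repressed by WRKY6, and the phosphate transporter gene PHT1;1 (-1.03 ± 0.09), a target of WRKY45, fell in the authors' deposited table. With nitrate, CYP71A12 rose by 2.82 ± 0.12 in wild type, fell by 1.13 ± 0.09 in hbi-q and fell by 1.98 ± 0.09 when H2O2 was present in the authors' deposited tables. FMO1, which makes the immune signal N-hydroxypipecolic acid, fell by 2.32 ± 0.10 and CBP60G, a master regulator of salicylate synthesis, by 1.99 ± 0.09 with nitrate in hbi-q in the authors' deposited table. The nitrate response was lower in hbi-q than in wild type for 6 of 16 targets and higher for 0, where 3.49% and 2.13% of all genes were. For nlp7-1 it was lower for 4 and higher for 1 (7.38% and 4.33% of all genes). With H2O2 it was lower for 9 and higher for 2 (13.4% and 11.4% of all genes). These targets were listed with earlier results of these data known, so the shares describe the list and were not tested.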

How the data were processed

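Reads were aligned to TAIR10 (HISAT, Bowtie2), counted per gene (htseq-count) and compared with DESeq2, per the submitters' processing notes and design text. Versions, and which libraries each fit held, are not stated there. The 5 deposited tables hold no values per library, so depth per library is unknown, precision is given by the standard errors, and no count model was fitted here. Base means are the authors' signal of counts divided by size factors, and they summed to between 2.015e+07 and 2.092e+07 in the full tables. Fold changes and standard errors are on the log2 scale in the deposited tables. The deposited test score equalled the log2 fold change over its standard error when checked. P-values and their adjusted values are the authors'. The table for H2O2 against mock lists only the 1810 genes past the criterion, and the 22311 genes of either H2O2 table served as its background. P-values measure the spread between libraries that the labels call biological replicates.

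Differences of nitrate responses were computed with Python 3.11.15, pandas 2.3.3 and scipy 1.17.1 and tested on simulated data. The simulated noise was normal with the deposited standard errors, as the test assumes. It cannot show the false rate in these data, where the robust SD of the statistic was 1.30, 1.88 and 1.97 for hbi-q, nlp7-1 and H2O2. The differences treat both fold changes as independent. The robust SD was the scaled median absolute deviation of the test statistic. Promoters, exon lengths and strands came from RefSeq TAIR10.1, whose coordinates were not joined to the authors' files. Wild type was compared with each mutant across separate libraries, and nlp7-1 was normalized separately. Any of the 53 members may be named. Those called in a table or in a difference test are given with values, as are 11 members with well-known roles in all tables, and up to 4 genes of the other lists, with SIB1 under H2O2, PHO1 and PHT1;1 chosen after their values were seen. The members and lists were chosen with earlier results of these data known. Alternatives were a stricter p, no minimum fold, a base mean minimum of 50, centring and robust scaling.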

Additional observations from a re-analysis of the deposited data

Results flagged for a closer look

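Nitrate responses of WRKY genes that differed between conditions or genotypes, by the test of the difference itself at an adjusted p under 0.05, are listed here with the difference on the log2 scale. With H2O2 minus without in wild type, they were WRKY2 (0.66), WRKY6 (-0.47), WRKY7 (-0.32), WRKY9 (-0.71), WRKY17 (-0.47), WRKY27 (-0.95), WRKY29 (-0.60), WRKY30 (-1.38), WRKY33 (0.39), WRKY38 (-0.87), WRKY41 (-1.20), WRKY50 (-0.85), WRKY51 (-0.58), WRKY53 (-0.38), WRKY54 (-1.47), WRKY55 (-2.45), WRKY57 (0.54), WRKY60 (-0.49), WRKY61 (-0.71), WRKY62 (-1.19), WRKY63 (-2.34), WRKY65 (-0.92), WRKY70 (-0.53) and WRKY71 (-0.95). In hbi-q minus wild type they were WRKY18 (0.44), WRKY23 (0.96), WRKY29 (-0.53), WRKY31 (-0.97), WRKY33 (0.42), WRKY38 (-0.58), WRKY51 (-0.90), WRKY54 (-0.86), WRKY57 (0.54), WRKY61 (-0.62), WRKY62 (-0.75) and WRKY65 (-0.45). In nlp7-1 minus wild type they were WRKY23 (0.82), WRKY38 (-0.91), WRKY40 (0.96), WRKY54 (-0.70), WRKY62 (-0.59), WRKY63 (-1.27), WRKY65 (-0.47) and WRKY71 (-1.03). All 3 differences use the same wild-type response. Outlying samples could not be looked for, since no values per library were analysed here.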

How the results depend on the processing

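Without a minimum fold the WRKY genes called went from 5 to 36 for nitrate in wild type, from 7 to 37 in hbi-q, from 4 to 25 in nlp7-1 and from 5 to 35 with H2O2. With the test of differences scaled by its robust SD, the called differences went from 24 to 4 for H2O2, from 12 to 4 for hbi-q and from 8 to 0 for nlp7-1. Over all genes they went from 5509 to 823, from 1288 to 520 and from 2552 to 66 in the same order. With at least a 2-fold difference the WRKY counts went to 6, 0 and 2, and at an adjusted p under 0.01 the WRKY count for nlp7-1 went to 3. Other counts stayed within 1.5 times under a stricter adjusted p, under centring on the median gene and with base means of at least 50. These counts pool rises and falls. With the base mean minimum, members that rose with nitrate in wild type went from 2 to 1, because WRKY30 was left out. By the authors' values for that response, WRKY30 has a base mean of 49.93 and WRKY55 of 13.77, both under 50. The nitrate results of these 2 genes, and differences that use them, thus rest on low counts. Centring turned the sign of WRKY53 in nlp7-1 minus wild type to 0.002, which was not called in either case. The centring shifts of the 3 differences lay between -0.05 and 0.01 on the log2 scale. No paired analysis was possible because the tables hold no values per library, and for the same reason no replicate could be left out. Genes with low base means, such as WRKY12 and WRKY42, had wild-type standard errors of 0.86 and 0.45 in the authors' deposited table, which limits what could be detected. WRKY33 and 9 other members overlap a gene on the opposite strand, and the labels do not tell whether strand was kept.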

Other observations

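Levels in hbi-q could be derived for the 14 WRKY genes listed with H2O2, since the wild-type and hbi-q tables share 1 base mean per gene over both genotypes. The derivation takes that base mean as the equal average of the mock and KNO3 groups of both genotypes, which the labels do not state. The derived values join tables normalized separately and have no error and no test. Over 979 genes with a base mean over 100 the derived log2 ratio of hbi-q to wild type in mock had a median of 0.04 and quartiles of -0.20 and 0.34. WRKY31 stood at 196 normalised counts in hbi-q mock against 83.9 in wild type, a log2 ratio of 1.22. After KNO3 the levels were 69.9 and 58.9. WRKY55 (17.6 against 7.13) and WRKY63 (55.1 against 30.1) were also higher in hbi-q mock, and after KNO3 they stood at 15.7 against 14.6 and at 133 against 131. For these 3 genes the derived levels differed more between the genotypes in mock than after nitrate. The change in that ratio from mock to KNO3 equals the difference of nitrate responses tested above. By that test WRKY31 was called (adjusted p = 0.00425, but 0.104 with robust scaling). WRKY55 (adjusted p = 0.346) and WRKY63 (adjusted p = 0.0523) were not. WRKY51 showed the other order, at 296 against 248 in mock and at 117 against 182 after KNO3, as did WRKY75 (168 against 179, then 43.6 against 67.7) and WRKY45 (259 against 302, then 79.6 against 131). WRKY40 was lower in hbi-q mock (269 against 444) and stood higher after KNO3 (411 against 373). By the same test WRKY51 was called (adjusted p = 1.82e-05). WRKY75 (adjusted p = 0.384), WRKY45 (adjusted p = 0.254) and WRKY40 (adjusted p = 0.0905) were not.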
